A study of Homo sapiens with 2 samples.

Results

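The regions described here were PHF8 peaks that lay between genes but not in a gene desert. A peak belonged to them where its midpoint fell outside every gene body of the RefSeq annotation of GRCh38 (any biotype), more than 1 kb from any gene start or end, and not in a stretch of 1 Mb or more between neighbouring genes. The rule used position only. It selected 233 of 4015 peaks in the vector table, which was 5.80% (95% Wilson interval 5.12 to 6.57%), and 429 of 8928 peaks in the APOC2 table, which was 4.81% (4.38 to 5.27%), together 662 of 12943 peaks. They are called intergenic peaks below. The other peaks lay within 1 kb of a gene start or end (gene boundary peaks), inside a gene body, or in 1 of 32 gene-free stretches of at least 1 Mb.

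The study measured by ChIP-seq, with an antibody to PHF8, whether APOC2 alters the binding of PHF8 to chromatin. One library came from RKO cells, an established human colon carcinoma line, that had received the empty vector. The other came from RKO cells that had received a plasmid overexpressing APOC2, and both were grown in the same medium without further treatment named by the labels. APOC2 encodes apolipoprotein C-II, a cofactor of lipoprotein lipase. Each condition was 1 library of transfected cells, so no difference between the conditions has a replicate check, no p-value is given between them, and the intervals cover counting error over peaks only. Each peak carries a pileup (the number of ChIP fragments over its summit) and a fold enrichment, which is (pileup + 1) divided by (local background + 1). The local background was recovered from that formula. Read totals were unknown, but pileups of the vector table came in steps of 0.990 fragments and backgrounds of the APOC2 table in steps of 0.833, so backgrounds are also given in control fragments, after division by the step of the control (1 in the vector table).

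PHF8 is a histone lysine demethylase. Its JmjC domain removes methyl groups from lysines of histones H3 and H4, and its PHD finger binds the methylated H3 tail that marks active gene starts. It is therefore known mainly as a protein of promoters, and sites between genes lie away from that setting. Sequence between genes includes distal regulatory elements as well as segmental duplications, satellite repeats and relics of gene families, many of which lie next to centromeres and on the short arms of acrocentric chromosomes.

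The sequence of the peaks themselves was not analysed, and promoters of some neighbouring genes are given instead. Whether the peaks act on these promoters was not tested. In the RefSeq table of promoters (GRCh38.p14, 250 bases before to 50 after each gene start), the nearest gene of 52 of the 233 vector and 137 of the 429 APOC2 peaks had an entry. The 4 promoters below each had an intergenic peak 1 to 1.5 kb upstream of the start, in the APOC2 library and with no overlapping vector peak. They are printed 5′ to 3′ on the strand of the gene, and capitals mark GGGCGG, a GC box bound by the SP and KLF factors, on either strand.
EFNA5, chr5:107670888-107671187, minus strand: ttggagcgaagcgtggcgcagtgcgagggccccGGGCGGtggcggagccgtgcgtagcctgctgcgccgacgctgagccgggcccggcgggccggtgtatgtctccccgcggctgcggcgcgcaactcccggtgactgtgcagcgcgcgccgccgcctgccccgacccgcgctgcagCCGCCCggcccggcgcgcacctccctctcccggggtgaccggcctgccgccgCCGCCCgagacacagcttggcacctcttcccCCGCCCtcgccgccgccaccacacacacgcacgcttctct
NFATC1, chr18:79395680-79395979, plus strand: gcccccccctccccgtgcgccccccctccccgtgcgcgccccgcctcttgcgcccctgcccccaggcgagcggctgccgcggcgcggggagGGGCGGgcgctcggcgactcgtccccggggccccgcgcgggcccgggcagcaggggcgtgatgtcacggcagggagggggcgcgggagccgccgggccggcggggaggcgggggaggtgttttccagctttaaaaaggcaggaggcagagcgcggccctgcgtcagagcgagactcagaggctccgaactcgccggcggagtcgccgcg
PJA2, chr5:109409925-109410224, minus strand: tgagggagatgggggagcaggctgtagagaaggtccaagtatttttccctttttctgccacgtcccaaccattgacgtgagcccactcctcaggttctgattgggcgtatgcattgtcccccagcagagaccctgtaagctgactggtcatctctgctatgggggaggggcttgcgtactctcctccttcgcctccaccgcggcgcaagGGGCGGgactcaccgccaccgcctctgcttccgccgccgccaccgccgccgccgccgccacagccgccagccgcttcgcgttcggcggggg
SHC3, chr9:89178769-89179068, minus strand: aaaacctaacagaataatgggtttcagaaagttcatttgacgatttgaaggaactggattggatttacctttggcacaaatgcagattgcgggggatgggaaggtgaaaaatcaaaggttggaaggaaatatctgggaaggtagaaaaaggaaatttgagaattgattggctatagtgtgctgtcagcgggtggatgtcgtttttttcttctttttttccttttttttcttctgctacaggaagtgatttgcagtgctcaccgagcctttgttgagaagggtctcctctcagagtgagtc

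The promoter of EFNA5, which encodes the membrane ligand ephrin-A5, was 78.0% G and C and held the GC box 4 times. The promoter of NFATC1, a calcium-regulated transcription factor gene, was 79.7% G and C and held it once, as did that of PJA2, a ubiquitin ligase gene, at 65.0%. That of SHC3, which encodes a neuronal adaptor protein, was 41.0% G and C and held none. Over all 35116 promoters of the table the median G and C content was 58.7%, and 45.0% held the GC box. The intergenic peak was 1409 bases upstream of the EFNA5 start (fold enrichment 6.38, pileup 16), 1405 upstream of NFATC1 (4.88, pileup 12), 1043 upstream of PJA2 (4.67, pileup 8) and 1494 upstream of SHC3 (6.38, pileup 16). Only the PJA2 window was itself touched by a peak, an APOC2 peak with a fold enrichment of 5.31 that reached from the gene into its edge.

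The number of intergenic peaks was higher in the APOC2 table by 1.84 times (1.57 to 2.16), against 2.22 times (2.14 to 2.31) for all peaks. The intergenic ratio was smaller than at gene boundaries, where 4814 APOC2 stood against 1184 vector peaks (4.07 times, 3.82 to 4.33). It was also smaller than in gene bodies, with 607 against 177 (3.43 times, 2.90 to 4.05). It was a larger ratio than in gene-free stretches, with 3078 against 2421 (1.27 times, 1.21 to 1.34). Among the peaks outside gene-free stretches, the intergenic share was 14.6% for vector and 7.33% for APOC2 peaks. The number depended on how deep the longer list was read. When only as many top APOC2 peaks by p-value were kept as the vector table holds, 94 of them were intergenic against 233 vector peaks, a ratio of 0.403.

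Most intergenic peaks of vector cells recurred in APOC2 cells, and most of those of APOC2 cells had no counterpart. Of the vector peaks, 166 of 233 (71.2%, 65.1 to 76.7%) were overlapped by at least 1 bp by a peak of the other library, against 83.6% of all vector peaks. Of the APOC2 peaks, 173 of 429 (40.3%, 35.8 to 45.0%) were overlapped, against 37.3% of all APOC2 peaks. That left 67 vector and 256 APOC2 intergenic peaks without a partner. Sharing of vector peaks was 96.9% at gene boundaries, 88.1% in gene bodies and 77.9% in gene-free stretches, so the intergenic share was the lowest of the 4 positions. For APOC2 peaks the intergenic share lay between the 23.2% of gene boundaries and 25.9% of gene bodies on one side and the 61.2% of gene-free stretches on the other. In the APOC2 table the intergenic share was thus close to the background of all peaks, and in the vector table it was below it.

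**Figure D1:**
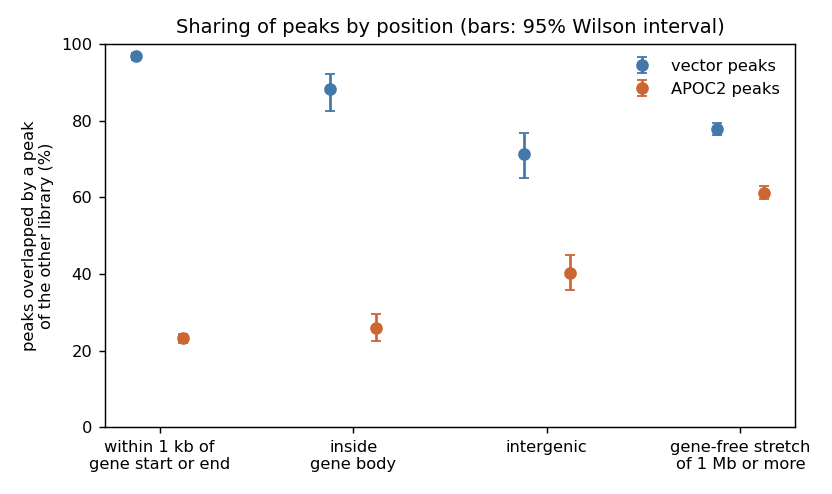
Share of peaks overlapped by a peak of the other library (y axis, percent) by position (x axis), for vector and APOC2 peaks, with 95% Wilson intervals as bars. Intergenic peaks stand at 71.2% (vector) and 40.3% (APOC2), the lowest of the vector points and the second highest of the APOC2 points.

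The intergenic peaks were crowded into a few places. Chromosomes 3, 4, 16, 20, 21 and 22 held 185 of the 233 vector peaks (79.4%) and 282 of the 429 APOC2 peaks (65.7%), but 21.2% of the bases that met the rule. Chromosome 21 alone held 51 vector and 82 APOC2 peaks, with 1.66% of those bases. Chains in which neighbouring intergenic peaks lay at most 100 kb apart, and which had at least 5 peaks of 1 library, numbered 18 and covered 2066 kb. They held 171 of the vector peaks and 258 of the APOC2 peaks (1.51 times, 1.24 to 1.83). The remaining 62 vector and 171 APOC2 peaks (2.76 times, 2.06 to 3.68) were dispersed over 19 and 24 chromosomes. Of the clustered peaks 74.3% of vector and 51.2% of APOC2 were shared, and of the dispersed peaks 62.9% and 24.0%. The split was not neutral between the libraries, because 8 of the 18 chains reached 5 peaks in the APOC2 library only. Both number ratios and these shares depend on that rule. The annotation used held genes only, so how many intergenic peaks lay in or next to centromeres and satellite repeats was not measured.

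Of the 18 clusters, 8 qualified only through their APOC2 peaks, which fixed the direction of their counts. The other 10 had at least 5 peaks of each library, and all 10 had more APOC2 than vector peaks. The largest, chr3:90781671-91284258, lay between LOC124909499 and LOC101930420 and held 33 vector and 43 APOC2 peaks, of which 24 and 25 were shared. Its flanking genes are 947.9 kb apart, so it fell just inside the limit of 1 Mb, and the next longer stretch with peaks, 1081 kb on chromosome 2, had 7 and 10 peaks that were therefore not counted. On chromosome 20, 25 vector and 29 APOC2 peaks lay at 28615955 to 28907979, between the FRG1 pseudogenes FRG1CP and FRG1DP, with 13 shared in each library. On chromosome 21, 24 and 34 peaks lay at 9137431 to 9315825 beside the pseudogene TEKT4P2, with 17 shared in each.

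Several clusters had a multicopy gene family as their neighbour. FRG1, a family with copies next to centromeres, flanked 34 vector and 49 APOC2 peaks on one side or the other. DUX4L copies, which descend from the double homeobox gene of the D4Z4 repeat, flanked 14 and 19 peaks, ANKRD20A copies 15 and 21, and REXO1L copies, related to an RNA exonuclease gene, 11 and 13. These families were picked after the flanking genes had been seen. The REXO1L array at chr8:85650238-85822211 (12 vector and 14 APOC2 peaks, of which 10 and 10 were shared) differed from the cluster on chromosome 3 in its background. The median background there was 5.24 control fragments in vector cells and 5.31 in APOC2 cells, against 1.00 and 0.971 in the cluster on chromosome 3. How reads from such near-identical copies were placed among them was not given in the sources used here, so a count at any 1 copy is uncertain.

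**Figure D2:**
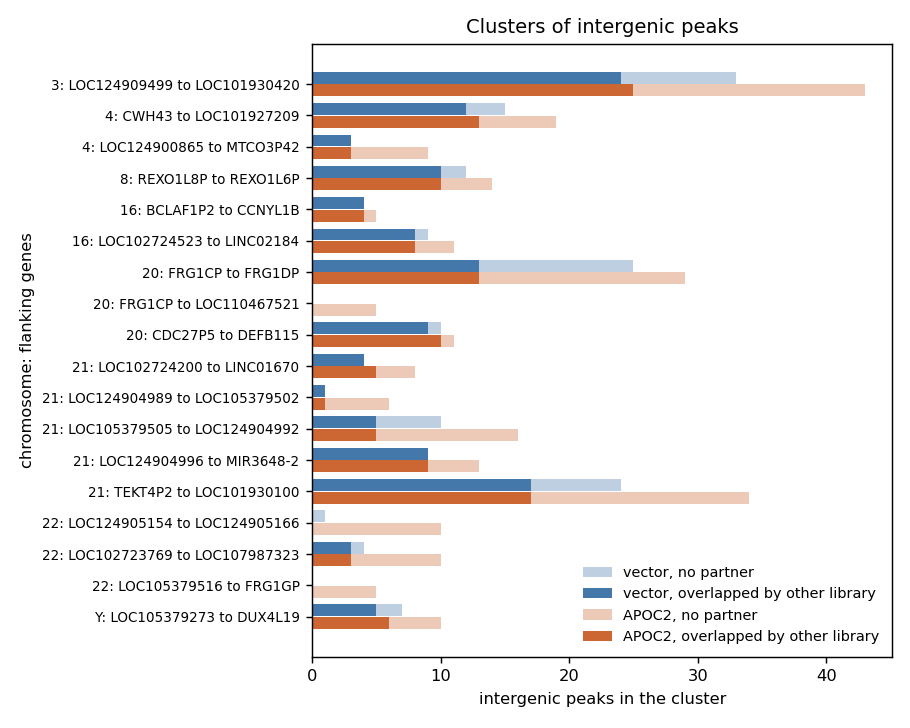
Number of intergenic peaks (x axis) in each of the 18 clusters, named on the y axis by chromosome and flanking genes. Blue bars are vector and orange bars APOC2 peaks, with the full colour for peaks overlapped by the other library, and the 8 clusters with fewer than 5 vector peaks entered through their APOC2 peaks alone.

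The distance from the midpoint of an intergenic peak to the nearest gene had a median of 49.3 kb (41.1 to 67.0 kb) for vector and 27.6 kb (20 to 38.8 kb) for APOC2 peaks. All 1136 Mb of bases that met the rule, assembly gaps included, had a median of 20.4 kb. Between 1 and 10 kb lay 23.2% of vector and 31.9% of APOC2 peaks, beside 31.3% of those bases. Beyond 100 kb lay 34.8% and 25.6%, beside 10.2% of the bases. Clustered and dispersed peaks differed in this. The clustered peaks had medians of 75 kb (vector) and 67.3 kb (APOC2), and the dispersed peaks 10.9 kb (7.28 to 24.0 kb) and 7.98 kb (6.33 to 10.5 kb). The 20.4 kb of the bases that met the rule lay inside the interval of the dispersed vector peaks and above that of the dispersed APOC2 peaks.

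The excess of APOC2 over vector peaks was larger near genes. There were 137 against 54 peaks between 1 and 10 kb (2.54 times, 1.85 to 3.47) and 182 against 98 between 10 and 100 kb (1.86 times, 1.45 to 2.37). Farther out there were 110 against 81 (1.36 times, 1.02 to 1.81). In the same order, the clustered counts were 41 against 24, 112 against 70 and 105 against 77. The dispersed counts were 96 against 30, 70 against 28 and 5 against 4, so nearly all peaks beyond 100 kb were clustered. In the APOC2 table the unshared peaks had a median distance of 18.2 kb and the shared ones 48.9 kb, but within each position they were closer: 66.1 and 68.8 kb for clustered and 7.60 and 8.23 kb for dispersed peaks. In the vector table the unshared and shared medians were 52.4 and 48.9 kb over all intergenic peaks, 112.3 and 68.3 kb for clustered and 20.3 and 8.26 kb for dispersed ones, with overlapping intervals in each position. The farthest peaks of both libraries lay in the cluster on chromosome 3, at 473.9 kb (vector) and 472.7 kb (APOC2) from LOC101930420. At the other limit, the vector peak just over 1 kb from a gene was 1033 bp from ANKRD20A16P (fold enrichment 4.93), and the APOC2 peak was 1024 bp from LINC02947 (18.5). That APOC2 peak overlapped a vector peak whose midpoint was 968 bp from the same gene (11.2), so the limit split this pair. The APOC2 peak just under the limit was 967 bp from LOC124904906 (7.64).

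**Figure D3:**
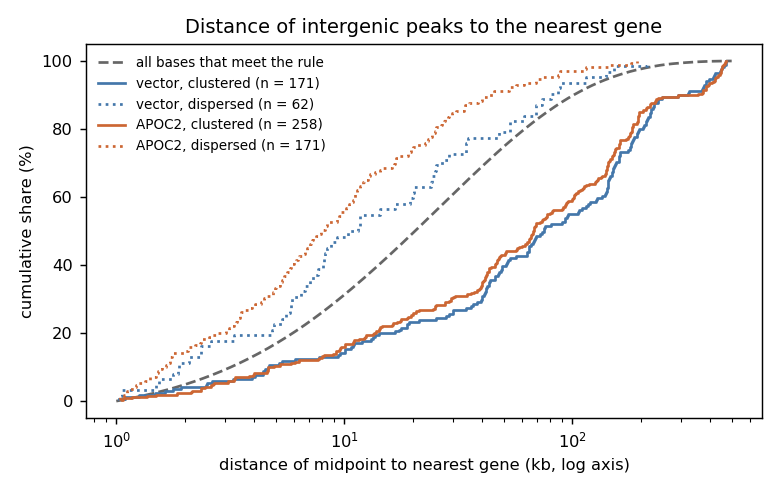
Cumulative share of peaks (y axis, percent) by the distance of their midpoint to the nearest gene (x axis, kb, log axis), for clustered (solid) and dispersed (dotted) peaks of each library and for all bases that met the rule (dashed). The dispersed curves lie mostly to the left of the dashed curve, with medians of 10.9 and 7.98 kb against 20.4 kb, and the clustered curves to its right over most of its height.

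A pseudogene was the nearest gene of 154 of the 233 vector peaks (66.1%, 59.8 to 71.9%) and 221 of the 429 APOC2 peaks (51.5%, 46.8 to 56.2%), and of 31.5% of the bases that met the rule. A protein-coding gene was nearest to 9.01% and 16.1%, beside 24.7% of those bases. The dispersed vector peaks had a pseudogene nearest to 67.7% (55.4 to 78.0%) and a coding gene to 14.5% (7.83 to 25.3%). The dispersed APOC2 peaks had a pseudogene nearest to 35.7% (28.9 to 43.1%) and a coding gene nearest to 55 of 171 (32.2%, 25.6 to 39.5%). Of these 55 peaks 19 (34.5%, 23.4 to 47.7%) had a nearest gene with an APOC2 peak at its own boundary, while 23.8% of all coding genes had one. Those 19 included the peak 3349 bp from EXOSC2, a subunit gene of the RNA exosome, whose boundary peak had a fold enrichment of 21.7. Of the dispersed APOC2 peaks within 10 kb of a gene, 46 of 96 had a neighbour of known strand, and 24 of these 46 (52.2%, 38.1 to 65.9%) lay on the side of its start, beside 46.4% of the bases within that distance.

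Intergenic peaks had lower pileups than gene boundary peaks, and pileups closer to those in gene-free stretches. Median pileups were 28.7 (vector) and 28 (APOC2) at gene boundaries, and 17.8 and 13 in gene-free stretches. For intergenic peaks the values were as follows. The median pileup was 15.8 fragments (14.8 to 17.8) in vector cells and 12 (12 to 13) in APOC2 cells, or 14.4 after division by the control step. The median fold enrichment was 6.45 (5.95 to 6.60) and 5.53 (5.51 to 5.63). It was 5.15 and 5.27 at gene boundaries, and 8.43 and 7.19 in gene-free stretches. Median lengths were 341 and 315 bp, against 298 and 300 bp over all peaks, and intergenic peaks together covered 112 and 173 kb. In the APOC2 table the peaks without a partner had a median pileup of 11 and those with one 16, but the medians of their fold enrichment differed less, by a ratio of 0.909 (0.779 to 0.983).

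Close to 48% of the intergenic peaks stood at or near the lowest background recovered in their library. That was 0.997 control fragments for vector and 0.971 for APOC2 peaks. No peak of any position lay below it, so a lower local control could not be told there. The median background was 1.12 fragments in vector cells and 0.907 in APOC2 cells, or 1.12 and 1.09 control fragments. A background of at most 1 control fragment, with a tolerance up to 1.05, was recovered for 112 vector peaks (48.1%, 41.7 to 54.5%) and 206 APOC2 peaks (48.0%, 43.3 to 52.7%). The same held for 2.2% and 1.35% of gene boundary peaks, 11.9% and 10.7% of gene body peaks, and 84.1% and 85.2% of peaks in gene-free stretches. By this share at low background, intergenic peaks thus lay between the gene boundaries and the gene deserts. The share rose with distance from genes, from 24.1% at 1 to 10 kb through 42.9% to 70.4% beyond 100 kb in the vector table, and from 21.2% through 52.2% to 74.5% in the APOC2 table.

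Peaks at this low end of the background had small pileups. Those on at most 1 control fragment had a median pileup of 12.9 (vector) and 9 (APOC2), against 24.7 and 19 for the others, yet their median fold enrichment of 6.94 and 5.53 was at or above the 5.49 and 5.29 of the others. Their shared fraction was lower in both tables, with intervals that overlapped for APOC2 peaks: 61.6% (52.4 to 70.1%) against 80.2% (72.2 to 86.3%) of vector peaks, and 35% (28.8 to 41.7%) against 45.3% (38.9 to 51.8%) of APOC2 peaks. The number ratio was 1.84 in both groups of background. At the other extreme, the peak near DUX4L20 at chr10:133688162-133688820 stood on 126 control fragments in both libraries, with pileups of 293 and 251 and fold enrichments of 2.31 and 2.38. The cluster at chr16:34573956-34595769, between LOC102724523 and LINC02184, stood on a median of 34.0 and 33.0 control fragments and had median fold enrichments of 2.71 and 3.26 over 9 vector and 11 APOC2 peaks.

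**Figure D4:**
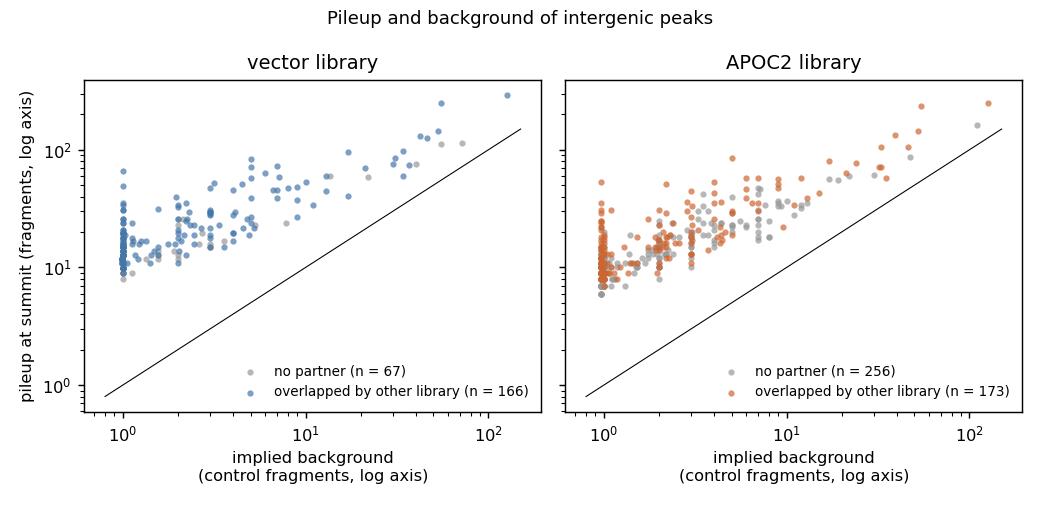
Pileup at the summit (y axis, fragments, log axis) against the implied background (x axis, control fragments, log axis) of every intergenic peak, with the vector library on the left and the APOC2 library on the right. The column of points near 1 control fragment, the lowest background recovered, holds 112 vector and 206 APOC2 peaks. Grey points have no partner, and the line marks pileup equal to background.

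Pairing each intergenic peak with the intergenic peak of the other library that overlapped it most gave 163 pairs, with summits a median of 50 bp apart. Fold enrichment in APOC2 cells was higher in 64 of the 163 (39.3%, 32.1 to 46.9%), against 55.3% of all 3300 pairs of the tables. It was at least 1.5 times higher in 15 pairs (9.20%), against 17.6% of all pairs, and at least 1.5 times lower in 17 (10.4%), against 7.97%. The median log2 ratio was -0.10 (-0.13 to -0.037), while gene boundary pairs had 0.50 over 1111 pairs and gene body pairs 0.39 over 153, and pairs in gene-free stretches had -0.16 over 1867. The sign of the intergenic median depended on the measure. It was -0.30 with pileup as listed, -0.032 with pileup divided by the control step, and 0.0068 with pileup divided by background with nothing added.

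The medians of the dispersed and the clustered pairs had opposite signs. Over 124 clustered pairs the median log2 ratio was -0.13 (-0.22 to -0.083), with 7 pairs at least 1.5 times higher and 17 lower in APOC2 cells. Over 39 dispersed pairs it was 0.070 (-0.026 to 0.25), an interval that included 0, with 8 higher and none lower. Over all 3300 pairs it was 0.069, with 17.6% at least 1.5 times higher and 7.97% lower. With pileup divided by the control step the medians were -0.073 (clustered) and 0.13 (dispersed, 0.017 to 0.28), beside 0.16 over all pairs. By that measure 7 of the 39 dispersed pairs were at least 1.5 times higher and none lower, beside 665 and 172 of all 3300 pairs. With pileup as listed both were negative, at -0.34 (clustered) and -0.14 (dispersed). The dispersed median of 0.070 lay below that of gene boundaries. Backgrounds in control fragments were within 5% of each other in 113 of the 163 pairs. In 64 pairs both were at most 1 control fragment, near the lowest value recovered, so they could differ little there.

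**Figure D5:**
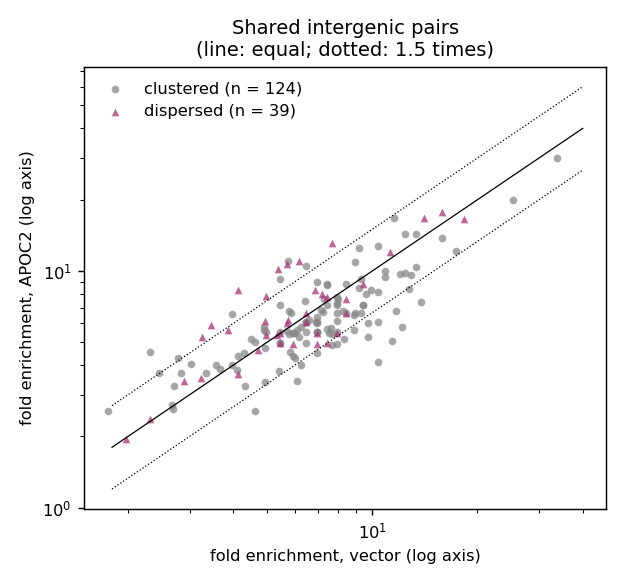
Fold enrichment in the APOC2 library (y axis, log axis) against the vector library (x axis, log axis) for the 163 shared intergenic pairs. Of the clustered pairs (circles) 39 of 124 lie above the line of equality and of the dispersed pairs (triangles) 25 of 39, with 8 triangles above the upper dotted line of 1.5 times and none below the lower one.

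The strongest shared pairs were ranked by the lower of both fold enrichments. That favours pairs that are high in both libraries, so their similar values are partly set by the rule. At chr16:34287647-34288275, between the pseudogenes BCLAF1P2 and CCNYL1B, the pileup was 66.3 in vector cells and 53 in APOC2 cells, and the fold enrichment 33.7 and 29.9. In the same cluster of 4 vector and 5 APOC2 peaks, chr16:34278757-34279096 had fold enrichments of 25.3 and 19.9. At chr3:195483559-195483891, between LOC124906341 and PPP1R2, which encodes an inhibitor of protein phosphatase 1, they were 18.3 and 16.6. These 3 pairs were lower in APOC2 cells by log2 ratios of -0.17, -0.34 and -0.14. At chr22:11369448-11370081, between DUX4L41 and ZNF73P, and at chr13:109424098-109424426, between LOC105370359 and LOC107984602, they were higher, with 15.9 and 17.7 at the former (log2 ratio 0.16) and 14.0 and 16.7 at the latter (0.25). All 5 differences were smaller than 1.5 times, and without replicates their spread is unknown. The pair on chromosome 3 had a log2 ratio of 0.0068 when nothing was added to pileup and background.

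The largest rise among the pairs was at chr8:142738882-142739487, 1726 bp from SLURP1, the gene of a secreted LY6-type protein of epithelia, and 2296 bp from THEM6. The pileup was 23.8 in vector cells and 35 in APOC2 cells over 5 and 4 control fragments, and the fold enrichment 4.12 and 8.31 (log2 ratio 1.01, and 0.82 with pileup divided by the control step). The next rises, at chr4:49108450-49110219 beside CWH43 (2.31 and 4.55, log2 ratio 0.98) and at chr20:31073879-31074444 between CDC27P5 and DEFB115 (5.74 and 11.0, 0.94), had a lower background in APOC2 cells and no higher pileup as listed. Their backgrounds were 17.0 and 6.98 control fragments at the former and 4 and 1.74 at the latter, and with pileup as listed their ratios were -0.44 and -0.092, or -0.17 and 0.17 after division by the control step. The largest falls were at chr3:90824635-90825227 (10.4 and 4.13, log2 ratio -1.33), chr20:31062436-31063319 (11.4 and 5.08, -1.16) and chr20:31065100-31066211 (12.1 and 5.81, -1.06). These 3 stayed negative with pileup as listed (-0.98, -1.07 and -0.71). The cluster on chromosome 20 that holds 2 of them had 10 vector and 11 APOC2 peaks and 8 pairs, of which 1 was higher in APOC2 cells.

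Besides the SLURP1 pair, 4 of the 8 dispersed pairs at least 1.5 times higher in APOC2 cells had a coding gene beside them. The pair 1142 bp from HMGB2, the gene of a chromatin architectural protein, had pileups of 21.8 and 29 over 3 and 2.18 control fragments and fold enrichments of 5.69 and 10.7 (log2 ratio 0.90). The pair between AK4, an adenylate kinase gene, and DNAJC6, the gene of the clathrin-uncoating cofactor auxilin, had pileups of 21.8 and 36 and fold enrichments of 6.17 and 11.0 (0.84). The pair 7058 bp from FIS1, the gene of a mitochondrial fission protein, had pileups of 29.7 and 45 over 3 control fragments in both and fold enrichments of 7.67 and 13.2 (0.78). The pair 25.2 kb from METTL2B, a tRNA methyltransferase gene, had pileups of 44.5 and 57 and fold enrichments of 3.25 and 5.28 (0.70). In all 4 the pileup was higher in APOC2 cells as listed, but the fold enrichment by which they were picked is computed from it. At the pair on chromosome 5, another of the 8, it was lower (47.5 and 43). The 4 pairs were singled out after their values had been seen.

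Peaks beyond the outermost annotated genes of chromosomes formed a small shared group. Beyond the last or before the first annotated gene lay 4 intergenic peaks in each library, on chromosomes 5, 12, X and Y, and all were shared. Fold enrichment was 5.39 in vector cells and 10.2 in APOC2 cells on chromosome 5, 4.95 and 7.84 on chromosome 12, 4.95 and 6.12 on chromosome X, and 3.86 and 5.65 on chromosome Y. All 4 pairs were thus higher in APOC2 cells, as were 55.3% of all 3300 pairs. The APOC2 peaks on chromosomes X and Y had the same length (356 bp) and the same background (7.49 fragments). Whether these are independent sites or copies of the same sequence was not tested, so the 4 pairs may not be separate observations. Pileup as listed was lower on chromosome 5 (47.5 and 43), where the background was 8 and 4 control fragments, and higher on chromosomes 12 (38.6 and 46), X (48.5 and 51) and Y (37.6 and 47).

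Of the 256 unpartnered APOC2 peaks 130 were dispersed, with a median fold enrichment of 5.20, and 126 clustered, with 5.53. The first by fold enrichment, chr3:90888584-90888916 (11.5, pileup 20), belonged to the cluster on chromosome 3. The next, chr1:182029359-182029667, lay 25.1 kb from the zinc finger gene ZNF648 (11.0, pileup 42), and the third, chr14:37583645-37583953, 5.75 kb from FOXA1, a pioneer transcription factor gene (9.76, pileup 25). The others were chr9:65389756-65389999, 1.08 kb from LOC107987069 (9.25), and chrX:41084183-41084478, 1.11 kb from USP9X, the gene of a deubiquitinase (9.01), which also had an APOC2 peak at its boundary (4.16). Of the 67 unpartnered vector peaks 44 were clustered, among them the 5 highest by fold enrichment: chr20:28899413-28899774 (10.4), chr3:91188338-91188598 (9.42), chr4:49142234-49142568 (8.91), chr20:31070739-31071127 (8.54) and chr3:90997604-90997829 (8.43). A missing partner means that no peak was called in the other table, and the pileup there is not listed.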

How the data were processed

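PHF8 ChIP-seq peaks of 1 vector and 1 APOC2 library of RKO cells were used as deposited. Per the submitters' processing notes, Bowtie2 2.2.9, MACS2 2.0, HOMER and the build hg38 were used. The control library, the handling of duplicate or multiply placed reads and the thresholds were not given in the sources used here. The highest q-value, read this way, was 0.0266 (vector) and 0.045 (APOC2). Peaks were called per library. Per the file headers, the deposited signal is the pileup at the summit and the deposited ratio is the authors' fold enrichment. A pair of deposited columns had lost their names and were taken as -log10 p and -log10 q values from their place in a MACS2 table; the former was checked by recomputation, and the latter was not.

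From these, positions were classed against 59679 placed RefSeq genes, whose bodies run from the first to the last base. Peaks were compared with an overlap of at least 1 bp, and pairs were formed by longest overlap, each peak once. The local background was taken as (pileup + 1) / fold enrichment - 1. A Poisson tail on it lay within 0.1 of the listed -log10 p for 99.7% of vector and 99.9% of APOC2 peaks. Shares have 95% Wilson intervals, and medians have binomial order-statistic intervals. Overlaps, classes and pairs were tested on simulated data and against bedtools 2.31.1. Python 3.11.15, pandas 2.3.3 and scipy 1.17.1 were used.

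Peaks were named by rule: the 5 strongest shared pairs by the lower fold enrichment, the 5 strongest peaks without a partner per library, the 3 largest rises and falls, the farthest peaks, the clusters and the peaks nearest to the 1 kb limit. Others were singled out after their values were seen, as was the split into clustered and dispersed peaks. The members and lists were chosen with earlier results of these data known. The sequence of the peaks themselves was not analysed here.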

Additional observations from a re-analysis of the deposited data

How the results depend on the processing

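No paired analysis was possible because each condition had 1 library and the labels carry no replicate numbers. For the same reason no replicate could be left out in turn. Of the recomputed values of the main measures, 78 stayed within their interval, 36 moved beyond it and 3 changed sign, and the cause was not tested except where the setting itself restricts the peaks. Leaving out the clustered peaks, a setting chosen after seeing the data, gave a number ratio of 2.76, sharing of 62.9% and 24.0%, median distances of 10.9 and 7.98 kb, backgrounds of 1.75 and 1.66 fragments, an APOC2 pileup of 16 and a median log2 ratio of 0.070. With equal numbers of top peaks the number ratio was 0.403 and sharing 27.9% (vector) and 71.3% (APOC2). With protein-coding genes only, the median distances were 192.5 and 101.9 kb, pileups 18.8 and 16, backgrounds 2.0 and 1.78 and the log2 ratio 0.050. Beyond 10 kb from genes, the median distances were 80.96 and 64.9 kb, the APOC2 pileup 11 and the backgrounds 1.00 and 0.833; beyond 3 kb the APOC2 distance was 40.2 kb. Leaving out stretches of 0.5 Mb or more gave distances of 35 and 19.1 kb. At a fold enrichment of at least 5, vector sharing was 63.2% and its background 1.00. Sharing was 54.5% and 29.6% with 50% overlap of both peaks, and 81.1% and 49.2% with gaps up to 1 kb allowed. The median log2 ratio was -0.30 with pileup as listed, -0.032 with pileup divided by the control step and 0.0068 without the added 1. The unpartnered to partnered ratio of APOC2 medians was 0.688 by pileup, scaled or not, and the APOC2 pileup in units of the control depth was 14.4. Among the named pairs, chr3:195483559 turned to 0.0068 without the added 1, chr4:49108450 to -0.44 by pileup as listed and -0.17 by scaled pileup, and chr20:31073879 to -0.092 by pileup as listed. Read totals were unknown, so a peak without a partner cannot be told from one just under the caller's threshold.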
